A study of Mus musculus with 6 samples.

Results

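The genes described here are 10 markers of the primitive streak and early mesendoderm, chosen by symbol: the secreted ligands Wnt3, Fgf8 and Fgf17, the T-box factors T (Brachyury) and Eomes, the homeodomain factors Mixl1, Gsc, Evx1 and Lhx1, and the basic helix-loop-helix factor Mesp1. They were matched by gene name in the authors' deposited table of a differential expression comparison, which holds 17110 genes. Of the 10 genes, 8 had a row there, and the gene IDs of the same 8 were listed in the table of counts. Gsc and Mesp1 had no row in either table used here and were not analysed here.

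The RNA came from mouse embryonic stem cells of the line TG2A, all carrying a fluorescent reporter of MERVL, an endogenous retrovirus that is transcribed at the two-cell stage and in a small share of cultured stem cells. All cells were grown in serum with leukemia inhibitory factor and were sorted by DsRed2 fluorescence into a positive group of 3 samples and a negative group of 3 samples, with the replicates taken on different dates. The labels give the same genotype and culture for both groups, name no age or clone and do not say whether feeder cells were present. The comparison table names neither group, so which of the sorted groups forms the numerator of its fold changes is not known here. Below, the numerator group is the one with the higher value where a fold change is positive, and the reference group is the one with the higher value where it is negative. Because these are bulk samples, fewer cells that express a gene and less RNA of it per cell cannot be told apart. Values after ± are standard errors (SE) of the log2 fold change, as deposited.

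The primitive streak forms at gastrulation, when epiblast cells under the influence of Nodal, Wnt3 and BMP signals leave the epithelium and become mesoderm and definitive endoderm. T is the best known marker of the streak and is required for posterior mesoderm, while Eomes acts in anterior streak derivatives and also in the trophoblast. In serum, cultures of mouse embryonic stem cells are known to be mixed, with naive cells beside cells that carry early differentiation transcripts.

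Of the 8 genes with a row, 7 were lower in the numerator group of the authors' deposited table and 1, Fgf17, was higher, all at a DESeq2 adjusted p-value under 0.05. Among all genes of the authors' deposited table, 15.9% were negative and 14.6% were positive at that threshold. The 7 negative genes all had a log2 fold change under -2, a size reached together with the threshold by 3.32% of all genes of the authors' deposited table. The median log2 fold change of the 8 genes was -4.41, against 0.0097 for all 17110 genes. T, Lhx1, Wnt3 and Fgf8 stood at places 25, 34, 40 and 47 from the lowest fold change of the authors' deposited table. Setting the median of the ribosomal protein genes to 0 moved the split of all calls from 52.2% negative to 65.3% negative, while 7 of the 8 genes stayed negative and 1 stayed positive at the threshold.

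**Figure D1:**
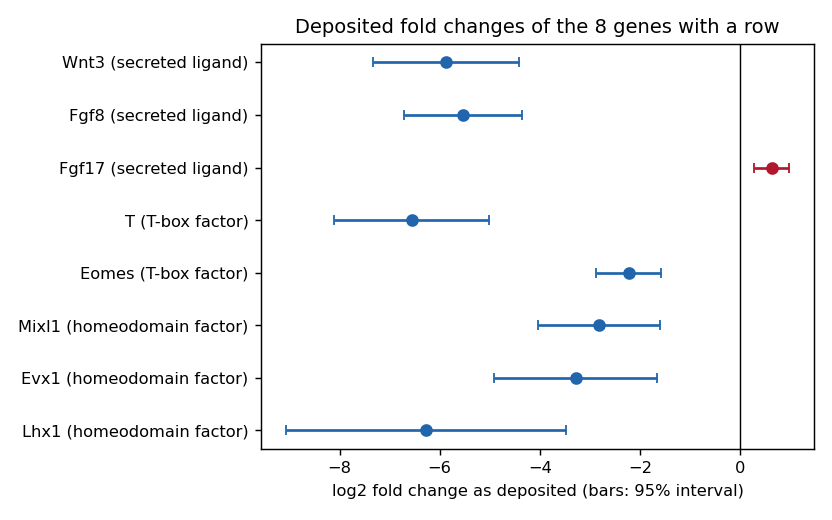
Log2 fold change of each of the 8 genes in the authors' deposited table (x axis), with the genes listed by role on the y axis; points are the deposited values and bars their 95% intervals, blue for negative and red for positive. The 7 blue intervals lie wholly below 0, and the interval of Fgf17 lies between 0.27 and 0.98.

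**Figure D2:**
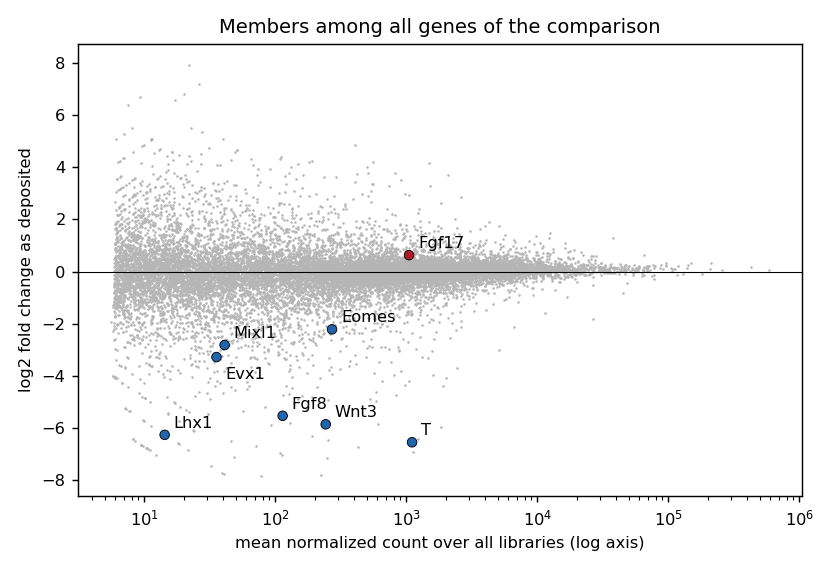
Log2 fold change (y axis) against the mean normalized count over all libraries (x axis, log scale) for all 17110 genes of the authors' deposited table in grey, with the 8 genes in blue (negative) or red (positive). T lies at a mean count of 1106 and a log2 fold change of -6.56, near the lower edge of the cloud, and Fgf17 lies at a similar mean count of 1049 just above 0.

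The sequences before the start sites are shown for T, Wnt3 and Lhx1, the 3 genes with the lowest fold changes. Whether these sequences bear on the fold changes was not tested. They are the 250 bases upstream of the start in RefSeq (GRCm38.p6, a build other than the GRCm39 of the submitters' processing notes), 5′ to 3′ on the strand of the gene, and capitals mark CG dinucleotides. The T window is chr17:8434173-8434422 on the plus strand, the Wnt3 window is chr11:103773925-103774174 on the plus strand and the Lhx1 window is chr11:84525535-84525784 on the minus strand.
T: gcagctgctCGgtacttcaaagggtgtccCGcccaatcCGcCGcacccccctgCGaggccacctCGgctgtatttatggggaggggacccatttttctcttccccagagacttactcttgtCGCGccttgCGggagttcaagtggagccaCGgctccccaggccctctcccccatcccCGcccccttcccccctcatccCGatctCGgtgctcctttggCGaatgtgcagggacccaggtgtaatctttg
Wnt3: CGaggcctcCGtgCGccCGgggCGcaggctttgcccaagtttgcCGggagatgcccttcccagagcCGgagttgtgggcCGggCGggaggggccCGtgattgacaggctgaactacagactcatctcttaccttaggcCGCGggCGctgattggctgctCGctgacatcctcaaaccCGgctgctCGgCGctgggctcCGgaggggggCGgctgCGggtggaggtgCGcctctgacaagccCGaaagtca
Lhx1: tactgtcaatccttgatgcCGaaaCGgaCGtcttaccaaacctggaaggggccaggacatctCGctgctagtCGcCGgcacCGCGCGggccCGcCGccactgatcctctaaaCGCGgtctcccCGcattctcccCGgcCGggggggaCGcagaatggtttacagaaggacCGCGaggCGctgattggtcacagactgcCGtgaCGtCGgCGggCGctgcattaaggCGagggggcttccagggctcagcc

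RefSeq windows of 300 bases, from 250 before to 50 after the start, were matched by symbol for 5 of the 8 genes (T, Wnt3, Lhx1, Eomes and Evx1); Fgf8, Fgf17 and Mixl1 had no entry. CG dinucleotides numbered 31 in the Lhx1 window, 24 in that of Wnt3, 17 in that of T, 12 in that of Evx1 and 10 in that of Eomes, against a median of 7 over 32817 windows. All 5 windows thus held more CG dinucleotides than the median window, with Lhx1 richer than 89.4% of windows and Eomes richer than 56.6%. A search on both strands for the TCF/LEF core CTTTGA found 1 match among the 5 windows, in T with its first base at -234 (TCAAAG on the strand shown), and 16.0% of all windows held that motif. The T-box half-site GGTGTGA, the homeodomain core TAATTA and the FOXH1 site AATNCACA had no match in the 5 windows, and were present in 3.98%, 5.30% and 3.60% of all windows.

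Wnt3 encodes the Wnt ligand that is needed to start the streak in the mouse embryo. In the authors' deposited table, Wnt3 (ENSMUSG00000000125) had a mean normalized count of 242.4 and a log2 fold change of -5.87 ± 0.74 (SE; adjusted p-value 1e-13). That is 58.4-fold lower in the numerator group, with a 95% interval from 21.2-fold to 160.4-fold. The table holds no value per sample, but a mean over 2 groups of 3 and their ratio together imply the mean of each group. For Wnt3 the implied means were 8.17 normalized counts per library in the numerator group and 477 in the reference group, so few reads of Wnt3 came from the numerator group.

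Fgf8, the fibroblast growth factor that streak cells need in order to migrate, had the smallest p-value of the 3 ligands Wnt3, Fgf8 and Fgf17. Its row (ENSMUSG00000025219) in the authors' deposited table gave a mean of 113.7, a log2 fold change of -5.54 ± 0.60 (SE) and an adjusted p-value of 1.58e-18. The implied means were 4.78 normalized counts per library in the numerator group and 222.6 in the reference group, a 46.5-fold difference.

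Fgf17 belongs to the same subfamily of fibroblast growth factors as Fgf8 and is also transcribed around the streak, but its row had the opposite sign. In the authors' deposited table, Fgf17 (ENSMUSG00000022101) had a mean of 1049, a log2 fold change of 0.63 ± 0.18 (SE; adjusted p-value 0.00280). It was 1.54-fold higher in the numerator group, at an implied mean of 1274 against 825 in the reference group. The 95% interval of Fgf17, from 0.27 to 0.98, did not overlap that of Fgf8, from -6.72 to -4.36, although both rest on the same libraries and their difference was not tested. Fgf18, the third gene of that subfamily, stood at 0.51 ± 0.33 in the authors' deposited table without passing (adjusted p-value 0.245). The call of Fgf17 met the authors' own limit of 0.5 on the log2 scale and was lost at a limit of 1.

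T, the T-box factor also called Brachyury, had the lowest fold change of the 8 genes. In the authors' deposited table, T (ENSMUSG00000062327) had a mean of 1106, a log2 fold change of -6.56 ± 0.79 (SE; adjusted p-value 3.89e-15). The implied means were 23.3 normalized counts per library in the numerator group and 2189 in the reference group. The ratio was 94.1-fold, with a 95% interval from 32.2-fold to 275.5-fold.

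Eomes, the other T-box factor, moved the same way by less. Its row (ENSMUSG00000032446) in the authors' deposited table gave a mean of 270.8, a log2 fold change of -2.22 ± 0.33 (SE) and an adjusted p-value of 3.6e-10. It was 4.66-fold lower in the numerator group, at an implied 95.7 against 446 normalized counts per library. Its 95% interval, -2.87 to -1.57, lay wholly above that of T, -8.11 to -5.01. Per kilobase, Eomes kept the highest implied level in the numerator group among the 5 transcription factors with a row, 26.9 normalized counts.

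The homeodomain factor Mixl1, a Nodal target in nascent mesendoderm, had a low mean of 41.0 in the authors' deposited table. There its log2 fold change was -2.82 ± 0.62 (ENSMUSG00000026497, adjusted p-value 4.9e-05 in the authors' deposited table). The implied means were 10.2 and 71.8 normalized counts per library in the numerator and the reference group, a 7.07-fold difference.

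Evx1, a homeodomain factor of the posterior streak, had a mean of 35.5 in the authors' deposited table (ENSMUSG00000005503), with a log2 fold change of -3.28 ± 0.83 (SE) and an adjusted p-value of 0.000539. The implied means were 6.61 and 64.4 normalized counts per library, a 9.74-fold difference. The antisense gene Evx1os overlaps Evx1 in GENCODE M21, and in the authors' deposited table it stood at -3.64 ± 1.12 (adjusted p-value 0.00573). Strand use in the counting is not given in the sources used here, so reads of Evx1 and Evx1os cannot be told apart. Eomes also has an antisense gene in GENCODE M21, Gm33460, which had no row here.

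Lhx1, a LIM homeodomain factor of the anterior streak, was the scarcest of the 8 genes, with a mean of 14.3 in the authors' deposited table (ENSMUSG00000018698). Its log2 fold change there was -6.27 ± 1.42 (adjusted p-value 8.61e-05 in the authors' deposited table). The implied total over 3 libraries was 84.6 normalized counts in the reference group and 1.10 in the numerator group, which is below 3 counts. The size of the Lhx1 difference is therefore loosely fixed, with a 95% interval from -9.06 to -3.48.

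**Figure D3:**
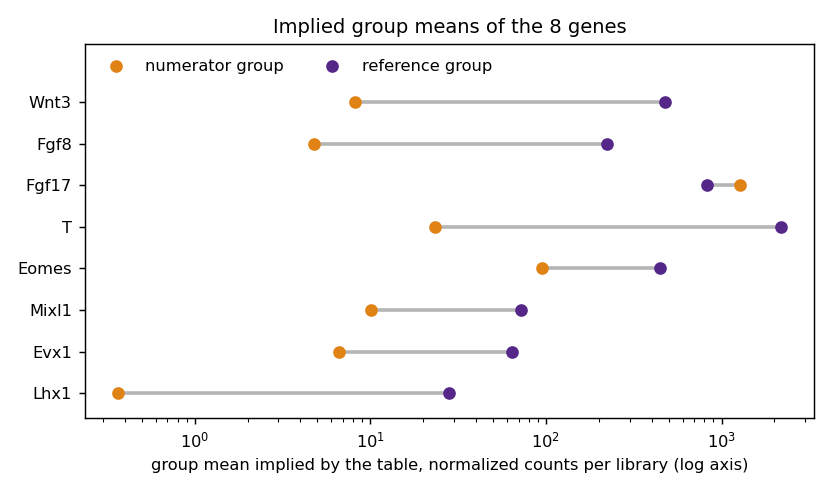
Group means implied by the authors' deposited table for the 8 genes, in normalized counts per library (x axis, log scale), with the numerator group in orange and the reference group in purple. The purple point lies to the right for 7 genes, and for Fgf17 the order is turned, at 1274 in the numerator group and 825 in the reference group.

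On the scale of mean normalized counts per kilobase of the longest GENCODE M21 transcript, the levels could be set side by side between genes. In the reference group, the implied level per kilobase was highest for T at 1070, followed by Fgf17 at 488, Fgf8 at 190.6, Wnt3 at 155, Eomes at 125, Mixl1 at 31.3, Evx1 at 22.4 and Lhx1 at 7.33. In the numerator group the order was led by Fgf17 at 754 per kilobase, with Eomes at 26.9 and T at 11.4 next, and the other genes at 4.43 or less. T and Fgf17 thus had means over all libraries of similar size, 541 and 621 per kilobase, but opposite distributions between the groups. No spread per sample was available for these levels, so no neighbours in either order were tested against each other. Longest transcripts may differ from those the authors counted.

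The intervals give a partial order of the 7 negative fold changes. The 95% intervals of T, Lhx1, Wnt3 and Fgf8 in the authors' deposited table overlapped one another, as did those of Eomes, Mixl1 and Evx1. T did not overlap Eomes, Mixl1 or Evx1, whose lowest bound was -4.92. The interval of Lhx1 was wide enough to overlap those of Mixl1 and Evx1, and those of Wnt3 and Fgf8 overlapped that of Evx1.

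The deposited standard errors were set beside those of genes of similar mean. The standard error of T, 0.79, compares with a median of 0.12 over the 2593 genes of the authors' deposited table whose mean lay within 1.5-fold of that of T, and 1 of them had a larger one. For Wnt3 the standard error of 0.74 compares with a median of 0.20, and 6 of 1735 such genes had a larger one in the authors' deposited table. For Fgf8 it was 0.60 against 0.27, with 12 of 1506 larger in the authors' deposited table. Eomes, Mixl1 and Evx1 had standard errors larger than those of 95.7%, 95.7% and 98.2% of genes of similar mean, Fgf17 one larger than 89.2% and Lhx1, at 1.42 against a median of 0.65, one larger than 99.3%.

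Counting error forms a part of each standard error and can be computed. From the implied means, counting error alone would give 0.17 for T, 0.29 for Wnt3, 0.38 for Fgf8, 0.094 for Eomes, 0.28 for Mixl1 and 0.34 for Evx1, each below the deposited value. For Lhx1 it would give 1.39 of the deposited 1.42. Taking the rest as variation between replicates under the negative binomial model of DESeq2, the implied coefficient of variation was 65.5% for T, 64.6% for Evx1, 58.1% for Wnt3, 47.2% for Mixl1, 39.2% for Fgf8, 27.6% for Lhx1, 26.9% for Eomes and 15.0% for Fgf17. The medians over genes of similar mean were 9.79% for T, 31.3% for Evx1, 15.2% for Wnt3, 29.8% for Mixl1, 20.4% for Fgf8, 45.9% for Lhx1, 14.7% for Eomes and 9.88% for Fgf17. The value of Lhx1 is what remained of 1.42 after 1.39, at an implied numerator mean of 0.365 counts. It depends on how so low a mean is treated in the fit, so it is not compared with its median. The other 7 genes lay above theirs. DESeq2 fits 1 such value per gene for both groups, so which libraries or which group carry the spread is not known here, and whether 1 library sets a value was not tested.

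**Figure D4:**
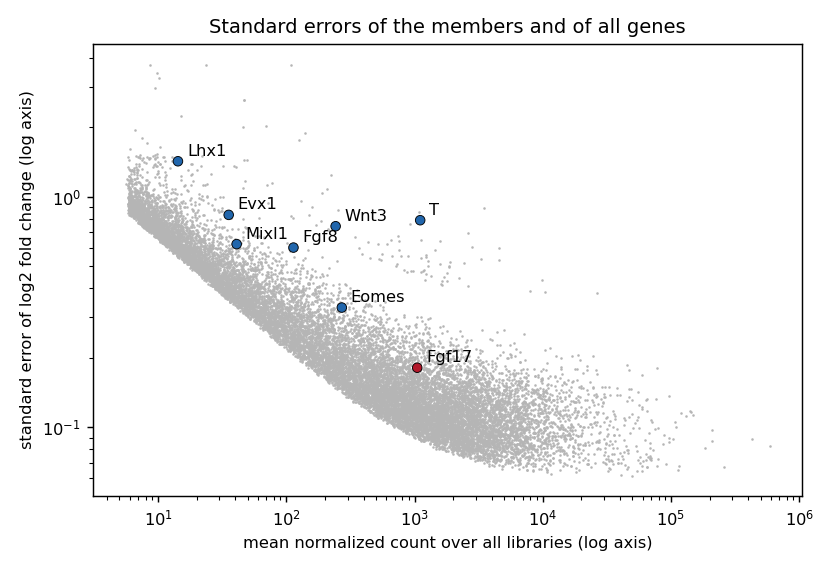
Standard error of the log2 fold change (y axis, log scale) against the mean normalized count over all libraries (x axis, log scale) for all 17110 genes of the authors' deposited table in grey, with the 8 genes in colour. T at 0.79 and Wnt3 at 0.74 stand well above the main band at their means, and Fgf17 at 0.18 lies within it.

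The 8 genes lie on 7 chromosomes, with Wnt3 and Lhx1 both on chromosome 11, so the 7 negative genes were not a run of adjacent genes. Their nearest neighbours with a row on each side, looked up in the gene order of GENCODE M21 after the members' values had been seen, numbered 16. Of these 16 neighbours, 4 were negative and 2 positive at the threshold in the authors' deposited table. Over all genes, 15.9% were negative and 14.6% positive. The negative ones were Prr18 and Pde10a on the 2 sides of T, Wnt9b beside Wnt3 and Fbxw4 beside Fgf8. In the authors' deposited table, Prr18 stood at -1.76 ± 0.56 (adjusted p-value 0.00829) and Pde10a at -1.97 ± 0.69 (adjusted p-value 0.0184). Both were scarce, at means of 20.4 and 11.5 in the authors' deposited table. Wnt9b, a further Wnt ligand gene, stood at -3.65 ± 1.35 with a mean of 7.11 in the authors' deposited table. The positive ones were Dmtn beside Fgf17 and Nsf beside Wnt3. In the authors' deposited table, Dmtn stood at 0.54 ± 0.10, close to the value of Fgf17 itself. Nsf stood at 0.46 ± 0.087 with a mean of 3833, opposite in sign to Wnt3. Xpo7, on the other side of Fgf17, stood at -0.025 ± 0.12 without passing.

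A wider list of 31 streak and nascent mesoderm genes had 25 with a row, of which 11 were negative and 2 positive at the threshold in the authors' deposited table (median log2 fold change -0.88). The shares over all genes, 15.9% negative and 14.6% positive, are to be set beside the counts of this list and those below. Apln, a secreted peptide of early mesoderm, stood at -5.24 ± 0.45 and Wnt8a, a ligand of the streak, at -4.79 ± 0.42 in the authors' deposited table (DESeq2 adjusted p-values 9.82e-30 and 9.53e-28). Fgf4, which embryonic stem cells themselves secrete, was positive at 1.04 ± 0.15 in the authors' deposited table (DESeq2 adjusted p-value 3.52e-10). The paraxial mesoderm genes Tbx6, at -0.51 ± 0.65, and Mesp2, at 0.23 ± 0.42, did not pass in the authors' deposited table. Msgn1, Wnt3a, Tdgf1, Foxc1, Foxc2 and Aplnr had no row and were not analysed here.

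Genes of definitive endoderm, node and anterior mesendoderm had 11 of 18 listed symbols with a row, of which 5 were negative and 0 positive in the authors' deposited table (median -0.59). At an unadjusted p-value under 0.05 in that table, the counts were 5 negative and 1 positive. Lefty1, a secreted Nodal antagonist, stood at -2.12 ± 0.41 and Foxj1, a factor of ciliated node cells, at -1.57 ± 0.33 in the authors' deposited table. Foxa2 and Sox17, which define definitive endoderm, had no row and were not analysed here.

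Among 12 Wnt ligand genes with a row, 9 were negative and 0 positive at the threshold in the authors' deposited table (median -2.56). The counts were the same, 9 and 0, at an unadjusted p-value under 0.05. Without Wnt3 itself, 8 of 11 were negative and the median was -2.43. Wnt4 stood at -4.54 ± 0.60 in the authors' deposited table (DESeq2 adjusted p-value 9.49e-13), next after Wnt3 and Wnt8a. The implied levels of the 12 ligand genes summed to 192 normalized counts per library in the numerator group and 1604 in the reference group.

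Receptors and direct readouts of the Wnt pathway had a median nearer 0. Of 24 with a row, 9 were negative and 2 positive in the authors' deposited table (median -0.30). The receptor genes Fzd2, Fzd6 and Fzd3 stood at -1.01 ± 0.15, -1.45 ± 0.24 and -0.95 ± 0.16 in the authors' deposited table. Their means were 371, 181 and 253. The more abundant receptor gene Fzd5, at a mean of 2754, was positive at 0.59 ± 0.13. Fzd7, at a mean of 2892, was negative at -0.43 ± 0.12. Ctnnb1, which encodes beta-catenin, stood at 0.031 ± 0.080 in the authors' deposited table without passing (adjusted p-value 0.823). The readouts were divided in the authors' deposited table, with Sp5 at -2.01 ± 0.47, Notum at 1.35 ± 0.28 and Axin2, which did not pass, at -0.16 ± 0.27; these 3 were chosen after their values were seen.

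Of the 15 fibroblast growth factor genes with a row, 3 were negative and 3 positive at the threshold in the authors' deposited table. These counts are not far from the shares over all genes, 15.9% and 14.6%. Fgf5, a marker of primed epiblast, stood at -7.17 ± 0.53 and Fgf13 at -2.56 ± 0.22 in the authors' deposited table, beside Fgf8. Fgf17, Fgf4 and Fgf10 were the positive ones. Of 15 receptors and feedback genes of the pathway, 7 were negative and 1 positive in the authors' deposited table. Dusp4 and Dusp6, phosphatases that act on ERK, stood at -2.98 ± 0.22 and -1.02 ± 0.14 in the authors' deposited table, and Etv5 stood at 0.47 ± 0.097.

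Of 21 Nodal and BMP pathway genes with a row, 12 were negative and 3 positive in the authors' deposited table (median -0.40). The BMP receptor genes Bmpr2 and Bmpr1a stood at -0.77 ± 0.099 and -0.70 ± 0.099 in the authors' deposited table. The ligand genes Bmp4 and Gdf3 were positive there, at 0.76 ± 0.16 and 0.49 ± 0.13. The count of negative genes fell to 7 at the authors' own limit of 0.5 on the log2 scale and to 2 at a limit of 1. The convertases of Nodal precursors had opposite signs, with Pcsk6 at 0.77 ± 0.11 and Furin at -1.61 ± 0.28 in the authors' deposited table (DESeq2 adjusted p-values 5.76e-11 and 1.19e-07). Nodal itself stood at 0.047 ± 0.17 with a mean of 1406 in the authors' deposited table, without passing.

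Formative and primed epiblast markers, the state from which streak cells arise in the embryo, had 8 negative and 2 positive genes among 14 in the authors' deposited table (median -0.48). Pou3f1 stood at -2.66 ± 0.18 in the authors' deposited table. Of the 8 T-box genes with a row other than T and Eomes, 1 was negative and 2 positive in the authors' deposited table, with Tbx3, a factor of naive cells, at 2.39 ± 0.18.

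**Figure D5:**
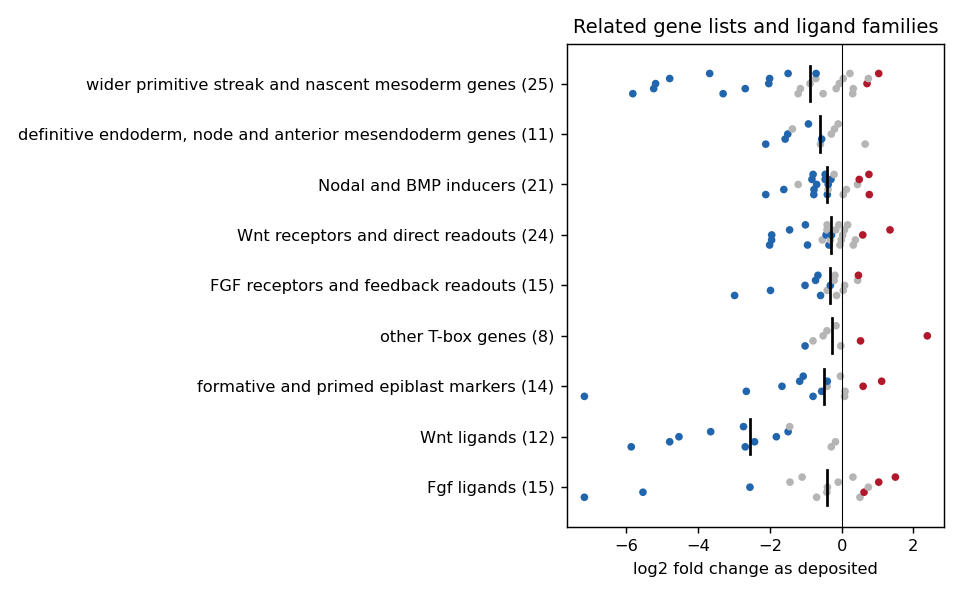
Log2 fold changes in the authors' deposited table (x axis) for 7 related gene lists and 2 families taken by symbol (y axis). Numbers of genes with a row are in brackets. Each point is a gene, blue or red where negative or positive at the threshold and grey otherwise, and black bars are medians. The Wnt ligands have the lowest median, -2.56. The Fgf genes, labelled Fgf ligands but taken by symbol and not all secreted, lie on both sides of 0.

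Markers of other cell types moved in the same table. Of 11 trophectoderm markers with a row, 8 were negative and 0 positive in the authors' deposited table, with Krt19, Krt8 and Krt18 at -4.73 ± 0.31, -4.39 ± 0.52 and -3.96 ± 0.51. At an unadjusted p-value under 0.05, 9 were negative and 0 positive. The list had an implied summed level of 2013 normalized counts per library in the numerator group against 11279 in the reference group. In the reference group Krt8, Krt18 and Krt19 set most of that sum, at 3633, 2979 and 1607. In the numerator group Tfap2c set most of it, at 1409 against 2145 in the reference group. Tfap2c, Gata3 and Ascl2 did not pass. Eomes is itself on that list, and Elf5 had no row. Cdx2 and Hand1, both negative, are also counted in the wider streak list, and Hand1 again among the later mesoderm markers below. Other lists share genes as well, so their counts are not separate. Of 7 fibroblast markers with a row, 5 were negative and 1 positive in the authors' deposited table, with Tagln at -5.96 ± 0.50, while the implied summed level was 31114 in the numerator group and 24657 in the reference group, set mostly by Fn1. Of 9 primitive endoderm markers, 4 were negative and 1 positive in the authors' deposited table, at summed levels of 6669 and 6152. The positive one was Lama1, at 1.91 ± 0.16, with implied means of 2373 in the numerator group and 631 in the reference group. Gata4, Gata6 and Pdgfra did not pass and had means of 14.7, 9.05 and 9.33. Later mesoderm markers had 6 of 10 with a row, 1 negative and 1 positive in the authors' deposited table, at summed levels of 89.0 and 101. The 2 called genes moved in opposite directions in that table, Hand1 at -3.68 ± 0.80 and Meox1 at 3.88 ± 0.78. Of 4 neurectoderm markers 2 were negative and 1 positive in the authors' deposited table, at summed levels of 1159 and 4866, set apart mostly by Nes at 223.9 and 3762, while Sox1 was positive at 1.01 ± 0.22. The part of these cell types in the values of the 8 genes was not tested.

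Pluripotency markers were abundant, with means of 32810 for Pou5f1 and 10034 for Nanog in the authors' deposited table. Of 10 with a row, 7 were positive and 1 negative in the authors' deposited table, at summed levels of 120054 in the numerator group and 80380 in the reference group. Of 11 markers of two-cell-like cells, 1 had a row, Calcoco2, at 3.10 ± 0.14 in the authors' deposited table. The other 10 were not analysed here, so the sorted state could not be checked on its defining genes.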

How the data were processed

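Polyadenylated RNA of 6 sorted samples (3 DsRed2-positive, 3 DsRed2-negative) was sequenced as paired ends on a DNBSEQ instrument, per the labels' protocols. The submitters' processing notes name FastQC 0.12.1, Trimmomatic 0.39, STAR 2.7.11b, RSEM 1.3.3, DESeq2 1.45.3 and the build GRCm39, with no role or order. The annotation, strand setting, model formula and reference group are not given in the sources used here.

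The table the authors deposited, whose column names are those of DESeq2 output, gives per gene a mean normalized count (a signal pooled over all libraries), a log2 fold change with its standard error on the log2 scale, a Wald statistic (a score), and a p-value and Benjamini-Hochberg adjusted p-value. The authors' up and down labels equal an adjusted p-value under 0.05 with an absolute log2 fold change over 0.5, with 0 exceptions. A second table has 6 columns of counts whose names match no label, so no value of it was used. Tests that need a match of columns to samples, such as edgeR and leaving out a replicate, were therefore not run, and no depth was computed from those columns.

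Genes were called at an adjusted p-value under 0.05 over all 17110 rows. Intervals are the fold change plus or minus 1.96 standard errors. Group means were computed from the mean count and the fold change for groups of 3, and the coefficient of variation from the standard error and those means. These formulas were tested on simulated data, with standard errors from a negative binomial fit given the true dispersion and not from DESeq2. The simulated group means all lay above the implied numerator means of Lhx1, Fgf8, Evx1, Wnt3 and Mixl1, so those were not covered. The p-values set each fold change against its modelled standard error, and are not themselves a measure of the spread between samples. Whether the replicates were paired in that model is not known here. The members and lists were chosen with earlier results of these data known. The rule for naming genes took the members, and the 3 genes of smallest adjusted p-value and the most abundant gene of each list. Not all genes given by the rule are named above. Skil, Spred1, Sall2, Dnmt3b, Mga, Zfp42 and Esrrb are among those left out, so the rule alone did not decide which genes are shown. Fgf18, Tbx6, Mesp2, Sp5, Notum, Axin2, Nodal, Furin, Fgf10, Nanog, Gata4, Gata6, Pdgfra and the neighbours were named outside the rule, after their values were seen. The same holds for Cdx2, Tfap2c, Gata3, Ascl2, Fzd5, Fzd7, Bmp4 and Gdf3. Python 3.11.15, pandas 2.3.3 and SciPy 1.17.1 were used. The alternatives were an adjusted p-value under 0.01, fold-change limits of 0.5 and 1, a minimum mean count of 50, a repeated adjustment, and centring on all genes or on 79 ribosomal protein genes.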

Additional observations from a re-analysis of the deposited data

How the results depend on the processing

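No paired analysis was possible because names of the columns of counts match no sample or replicate, and the comparison is deposited without values per sample; for the same reason other normalizations, count filters, another tool and leaving out each replicate were not run, and no depth per library was computed. Under 7 alternatives, 52 of 53 values of single members kept their direction and call. The exception was Fgf17 (0.63), whose call was lost at an absolute log2 fold change over 1, which lowers the number of positive members from 1 to 0 by that limit itself. Apart from the centrings, the alternatives kept the deposited fold changes, so no direction could change there. The centrings shifted all genes by only 0.0097 and 0.093. The count of 52 was therefore largely fixed by the settings and is no test of robustness. A minimum mean count of 50 left out Mixl1, Evx1 and Lhx1 and so left 4 negative members in place of 7. In the related lists, 83 of 98 counts of negative genes stayed within 1.5 times. An absolute log2 fold change over 1 lowered the negative Nodal and BMP genes from 12 to 2, the endoderm genes from 5 to 3, the Wnt receptors and readouts from 9 to 5, the FGF receptors and feedback genes from 7 to 3, the epiblast markers from 8 to 5, and pluripotency markers from 1 to 0. A limit of 0.5 left 7 Nodal and BMP genes. An adjusted p-value under 0.01 left 2 endoderm genes and 0 T-box genes, and the neurectoderm count was 1 in place of 2 under all 3 of these limits. A minimum mean count of 50 left 5 of 8 trophectoderm, 3 of 5 fibroblast and 0 of 1 later mesoderm markers. These follow from the limits themselves. Centring on all genes gave 2778 negative and 2420 positive genes, and centring on the ribosomal protein genes 3508 and 1864, in place of 2719 and 2492.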
